A study of Homo sapiens with 16 samples.

Results

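The organic ion transporters examined were the protein-coding genes of the SLC22, SLCO and SLC47 families. They were taken from the deposited gene count table by symbol and biotype, whatever their level, which gave 36 of 58735 genes: 22 SLC22, 12 SLCO and 2 SLC47 genes. The study measured poly-A RNA in HepaRG, a human liver line that forms hepatocyte-like and cholangiocyte-like cells when differentiated. Cells were treated for 3 days with medium changed daily, and 4 groups of 4 libraries each were made. Control cells received vehicle, 1% BSA. The second group received 30 nM formoterol, a β2-adrenergic agonist used as a bronchodilator. The third received 0.25 mM palmitic acid with 0.5 mM oleic acid, a common way to load liver cells with fat, and the fourth, called the combination, received both treatments. All groups, controls included, were kept in 2% DMSO in a medium with serum, insulin and the glucocorticoid triamcinolone acetonide. The sources used here do not say whether treated groups also received BSA. The labels call the replicates independent without saying that they came from separate cultures, so p-values measure the spread between these libraries. HepaRG is 1 line from 1 donor, so the replicates carry no variation between people.

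SLCO genes encode organic anion transporting polypeptides, sodium-independent carriers that bring bile salts, steroid conjugates, thyroid hormones, prostaglandins and drugs such as statins into cells. SLC22 genes encode organic cation transporters, organic anion transporters and carnitine carriers. In hepatocytes the main uptake carriers of these families sit on the blood-facing membrane. SLC47 genes encode multidrug and toxin extrusion proteins, which pass cations such as metformin out to bile or urine in exchange for protons.

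With either agent alone the uptake carriers SLCO1B1 and SLC22A3 and the efflux carrier SLC47A1 rose, and the prostaglandin transporter SLCO2A1 fell (edgeR quasi-likelihood test, Benjamini-Hochberg adjusted p under 0.05). The anion carrier SLC22A7 rose 3.10-fold with fatty acids, and SLCO2B1 rose 1.73-fold with formoterol. With both agents together SLCO1B1, SLC22A3 and SLC47A1 were at lower levels than the sum of the separate log2 changes gives. Several of these calls were lost when a single library was left out, and the libraries are named gene by gene.

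Libraries held 32471299 to 65673126 counts, with formoterol replicate 4 the deepest. Mean levels of the 14 hepatocyte markers in control cells ran from 2.91 CPM (counts-per-million) for ASGR2 to 16493 CPM for ALB. CYP3A4 averaged 2180 CPM, while TAT averaged 9.37 and ASGR1 17.2 CPM. CPM were computed throughout on library sizes scaled by trimmed mean of M-values (TMM). Among cholangiocyte markers EPCAM was at 0 in all 16 libraries and KRT7 averaged 0.322 CPM in control, while KRT19 averaged 58.7 CPM. Combination replicate 2 stood apart from the other libraries. The mean of 14 hepatocyte markers on the log2 scale, relative to the control mean, was −1.02 in that library and 0.43 to 0.52 in the other 3 combination libraries. Proliferation and progenitor markers went the other way, with a mean of 1.34 on the same scale in that library and 0.82 to 0.94 in the other 3, with summed levels of 650 and 395 to 423 CPM. The hepatocyte marker mean was −0.32 in control replicate 3 and 0.06 to 0.18 in the other 3 controls, 0.77 to 0.96 with formoterol and 0.38 to 0.68 with fatty acids. The tests use all 16 libraries and 1 spread estimate per gene, so combination replicate 2 enters the error of every comparison. Where leaving it out changes a call, the value without it is given beside the result.

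Transcripts of 22 of the 36 genes passed the filter on low counts: 11 SLC22, 9 SLCO and both SLC47 genes. The other 14 were untested. SLC22A6, SLC22A16, SLC22A24 and SLC22A31 had 0 counts in all 16 libraries, which allows up to 0.00504 CPM each (3 counts over the 16 libraries together). This limit covers counting error only. SLC22A6 encodes OAT1, a kidney anion carrier, and its partner SLC22A8 (OAT3) had 12 counts over all libraries. SLC22A2, the kidney cation transporter OCT2, had 33 counts and at most 6 in a library. SLC22A12 and SLC22A11, urate carriers of the kidney tubule, had 112 and 52 counts. The remaining untested genes, SLC22A13, SLC22A14, SLC22A25, SLCO1B7, SLCO1C1 and SLCO5A1, had between 8 and 132 counts over all libraries. A stricter filter of at least 1 CPM in 4 libraries would have kept 18 genes, leaving out SLCO1A2, SLCO4A1, SLCO6A1 and SLC22A10.

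In control cells 7 genes led the level per length. CPM per kilobase of the deposited gene length was 8.24 ± 1.21 for SLC22A18, a carrier of unsettled substrate (SD, n = 4 here and below). It was 7.73 ± 1.28 for SLCO2B1 (OATP2B1) and 7.66 ± 1.08 for SLC47A1 (MATE1). SLC22A7 (OAT2) followed at 7.15 ± 1.88, SLCO1B1 (OATP1B1) at 5.84 ± 1.64, SLC22A23 at 4.59 ± 0.467 and SLC22A3 (OCT3) at 3.92 ± 0.450 CPM per kilobase. Each of these overlapped its neighbour in the order over the 4 control libraries, so the order of neighbours was not resolved. Genes further apart did separate. SLC22A18, SLCO2B1 and SLC47A1 lay wholly above SLC22A23 and SLC22A3, and SLC22A7 wholly above SLC22A3. SLC22A5, at 2.70 ± 0.160 CPM per kilobase, was the first gene whose libraries all lay below those of the gene above it. Of the 20 neighbouring pairs among 21 tested genes ordered, 15 overlapped.

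**Figure D1:**
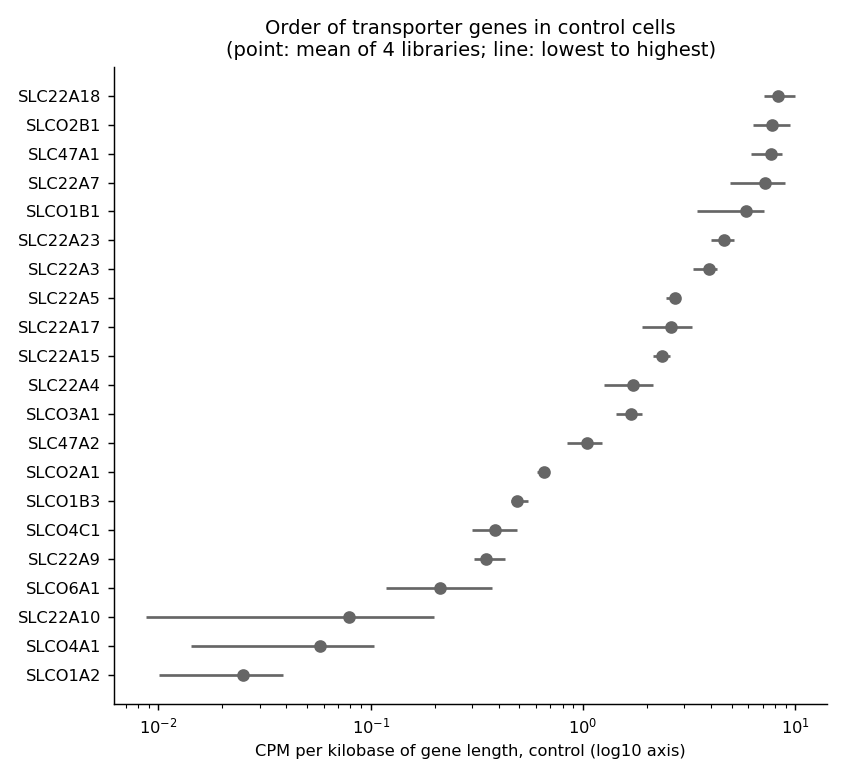
Level of 21 tested transporter genes in control cells, in CPM per kilobase of gene length on a log10 axis. Points are means of 4 libraries and lines run from the lowest to the highest library; the lines of the first 7 genes overlap from one gene to the next, and SLC22A5 at 2.70 is the first to lie wholly below the gene above it.

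The summed level of all 36 genes was 326 to 411 CPM in control libraries. It was 502 to 513 CPM with formoterol and 418 to 492 CPM with fatty acids, both wholly above the controls. Combination libraries held 445 to 458 CPM except replicate 2, which held 276 CPM. SLCO2B1 alone made up 19.7% to 23.7% of the sum in control, 26.1% to 28.8% with formoterol and 14.0% to 16.8% with fatty acids. It was 17.2% to 19.8% in 3 combination libraries and 10.1% in combination replicate 2.

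SLCO1B1 (ENSG00000134538, chr12:21131202-21239246, plus strand, GRCh38) encodes OATP1B1, the carrier that brings statins, bilirubin conjugates and bile salts into hepatocytes. It read 13.7, 15.9, 7.70 and 14.8 CPM in control replicates 1 to 4 and 26.7, 26.8, 26.4 and 26.1 CPM with formoterol. Libraries given fatty acids read 24.8, 25.0, 24.1 and 26.0 CPM, and combination libraries 21.4, 5.55, 24.3 and 22.5 CPM. Every library of either single treatment lay above every control, and control replicate 3 and combination replicate 2 were the lowest of the 16. SLCO1B1 rose 2.04-fold with formoterol, a log2 change of 1.03 ± 0.27 (SE; edgeR quasi-likelihood test, Benjamini-Hochberg adjusted p = 0.0192). It rose by 0.94 ± 0.27 with fatty acids (adjusted p = 0.0210). The combination differed from control by 0.50 ± 0.27, which did not pass (adjusted p = 0.260), but passed without combination replicate 2, at 0.81 ± 0.14 (adjusted p = 0.000155). The interaction, the effect of formoterol with fatty acids less its effect without them, was −1.46 ± 0.38 (adjusted p = 0.0283). Both single-treatment calls were lost without control replicate 3 (log2 change 0.84, adjusted p = 0.0799 for formoterol, and 0.76, adjusted p = 0.0784 for fatty acids). The interaction call was lost without control replicate 3, formoterol replicates 3 or 4 or fatty acids replicate 1 (adjusted p = 0.0504 to 0.0691). With control replicate 3 and combination replicate 2 both left out, a choice made after seeing the values, all of these calls passed: 0.84 ± 0.09 for formoterol (adjusted p = 2.22e-07), 0.76 ± 0.09 for fatty acids (adjusted p = 5.75e-07) and −0.97 ± 0.12 for the interaction (adjusted p = 1.16e-05).

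SLCO1B3 (ENSG00000111700, chr12:20810702-20916911, plus strand) lies near SLCO1B1, with SLCO1B7 between them, and encodes OATP1B3, which shares most substrates of OATP1B1. It was a low transcript here, at 1.66, 1.62, 1.71 and 1.95 CPM in control and 0.656, 1.44, 1.29 and 1.23 CPM with formoterol. Fatty acid libraries read 2.08, 2.41, 2.63 and 2.12 CPM and combination libraries 2.16, 1.95, 1.47 and 1.11 CPM. All formoterol libraries lay below and all fatty acid libraries above the controls, yet neither difference passed: −0.59 ± 0.27 (adjusted p = 0.183) and 0.41 ± 0.26 (adjusted p = 0.330). Exons of the read-through gene AC011604.2 cover 54.5% of its exon bases on the same strand, so the split of counts between them, and with it the level of SLCO1B3, is uncertain.

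The upstream sequences of this pair are shown because SLCO1B1 and SLCO1B3 differed in level and in their values under formoterol. That upstream of SLCO2B1 is shown because this gene had the highest CPM of the families in control. They come from RefSeq (GRCh38.p14, plus strand, 5′ to 3′), which matched 21 of the 36 genes. Capitals mark the letters GTTAAT, the half-site type of the hepatocyte factor HNF1, on either strand (ATTAAC on the other), or in SLCO2B1 the letters CAAAGTCCA, the type of HNF4, here on the other strand as TGGACTTTG.
SLCO1B1 chr12:21130962-21131152: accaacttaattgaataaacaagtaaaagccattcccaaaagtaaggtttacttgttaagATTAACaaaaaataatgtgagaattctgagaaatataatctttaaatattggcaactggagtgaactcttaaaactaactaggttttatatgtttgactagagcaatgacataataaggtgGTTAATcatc
SLCO1B3 chr12:20810461-20810653: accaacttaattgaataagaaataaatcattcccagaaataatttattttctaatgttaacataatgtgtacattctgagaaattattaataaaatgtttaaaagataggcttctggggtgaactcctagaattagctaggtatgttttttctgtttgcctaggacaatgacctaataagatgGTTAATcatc
SLCO2B1 chr11:75159680-75159779: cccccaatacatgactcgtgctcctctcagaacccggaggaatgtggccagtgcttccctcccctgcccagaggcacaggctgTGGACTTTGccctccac
The SLCO2B1 stretch lies inside the annotated span of the gene, before 1 of 2 RefSeq starts in the table used, and not before the outermost start of that span. Of the 2 windows of SLCO2B1 only this one held CAAAGTCCA, and the stretch was cut to include that match. The presence of the motif in it therefore follows from the choice. The first stretch ran from 232 to 42 bases before the annotated start of SLCO1B1 and the second from 244 to 52 bases before that of SLCO1B3. Both were cut to begin at the first longer run of bases that the windows share and to end just past the last GTTAAT. The shared beginning and the place of the motif at the end therefore follow from the cut. Of 181 aligned bases of the pair so cut, 151 were identical (83.4%), which is not the identity of the whole windows. The shared run around the last motif was tgGTTAATcatc. SLCO1B1 held a second match, 172 bases before its start, and SLCO1B3 had none there. In the SLCO1B1 stretch 30 bases are also exon of AC022335.1, a gene on the same strand. Its exons cover 13.5% of the exon bases of SLCO1B1. AC022335.1 had 0.000404 times the counts of SLCO1B1, and how reads on shared bases were counted is not given. Within 250 bases upstream, GTTAAT stood in 6.23% of 35116 RefSeq windows and CAAAGTCCA in 0.325%. These letters were chosen for display from 10 searched motifs after the matches were seen, and a match is a description of the sequence only. The full cyclic AMP response element TGACGTCA, in 1.65% of all windows, was in none of the 27 windows of the 21 genes, and its shorter form TGACG, in 21.2% of all windows, was in those of 5 genes.

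SLCO2B1 (ENSG00000137491, chr11:75100563-75206549, plus strand) encodes OATP2B1, an uptake carrier of steroid sulfates and drugs, and had the highest control CPM of all 36 genes. Controls read 78.8, 97.5, 65.1 and 78.7 CPM and formoterol libraries 139, 134, 147 and 134 CPM. With fatty acids the level was 70.1, 58.5, 79.9 and 78.6 CPM, and with both agents 78.5, 27.7, 90.7 and 77.4 CPM. The formoterol libraries stood above all others of the study, and the lowest was combination replicate 2. SLCO2B1 rose 1.73-fold with formoterol, by 0.79 ± 0.21 on the log2 scale (edgeR adjusted p = 0.0212). Adding fatty acids to formoterol changed it by −1.01 ± 0.21 (adjusted p = 0.00221), and by −0.75 ± 0.10 without combination replicate 2 (adjusted p = 1.24e-05). Fatty acids alone gave −0.16 ± 0.21 (adjusted p = 0.695). The interaction of −0.85 ± 0.30 did not pass (adjusted p = 0.103), and passed without combination replicate 2 at −0.59 ± 0.14 (adjusted p = 0.0105). The formoterol call was lost without control replicates 3 or 4 or formoterol replicate 3 (adjusted p = 0.0519 to 0.0836), with log2 changes of 0.70 to 0.78.

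SLCO2A1 (ENSG00000174640, chr3:133928145-134052184, minus strand) encodes the prostaglandin transporter, which clears prostaglandins from the outside of cells. It was the one SLCO gene that fell against control. Controls read 6.77, 6.72, 6.24 and 5.98 CPM and formoterol libraries 3.48, 4.25, 2.57 and 4.44 CPM. The SLCO2A1 level was 2.90, 2.35, 2.46 and 3.18 CPM in fatty acid libraries and 3.73, 4.93, 3.04 and 2.67 CPM in combination libraries. Every treated library, combination replicate 2 included, lay below every control. SLCO2A1 fell to 0.424 of control with fatty acids (−1.24 ± 0.20 log2, edgeR adjusted p = 0.000187). It changed by −0.79 ± 0.20 with formoterol (adjusted p = 0.0137) and by −0.84 ± 0.20 with both (adjusted p = 0.00606). The interaction was positive, 1.19 ± 0.29 (adjusted p = 0.0189), so the decrease under both agents was smaller than the sum of the separate log2 decreases. These 4 calls passed in every fit that left out 1 library.

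The other SLCO genes passed no comparison. SLCO3A1, a widely expressed prostaglandin and thyroid hormone carrier, ranged from 13.5 to 21.4 CPM over the 16 libraries. SLCO4C1, best known from kidney, ranged from 0.963 to 2.61 CPM. SLCO6A1, SLCO4A1 and SLCO1A2 reached at most 1.12, 0.787 and 0.682 CPM.

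SLC22A3 (ENSG00000146477, chr6:160348268-160452581, plus strand), among the cation transporters, encodes OCT3, a carrier of monoamines. Controls read 13.2, 14.1, 11.0 and 14.2 CPM and formoterol libraries 21.1, 16.3, 21.1 and 19.8 CPM. With fatty acids the level was 16.9, 20.4, 15.5 and 19.7 CPM, and with both agents 17.1, 11.8, 18.3 and 19.1 CPM. Every library of a single treatment lay above every control. SLC22A3 rose by 0.58 ± 0.14 with formoterol (edgeR adjusted p = 0.00945) and by 0.47 ± 0.14 with fatty acids (adjusted p = 0.0224). The interaction was −0.71 ± 0.19 (adjusted p = 0.0346). The combination differed from control by 0.34 ± 0.14 (adjusted p = 0.115), and passed without combination replicate 2 at 0.47 ± 0.12 (adjusted p = 0.00725). The fatty acid call was lost without control replicate 3 or fatty acids replicates 2 or 4 (adjusted p = 0.0653 to 0.0829). The interaction call was lost without control replicates 1 or 3, formoterol replicates 1, 3 or 4, fatty acids replicates 1, 2 or 4 or combination replicate 1 (adjusted p = 0.0508 to 0.0865). It was also lost with scaling by total counts only (−0.57, adjusted p = 0.0537) and with both control replicate 3 and combination replicate 2 left out (−0.49 ± 0.16, adjusted p = 0.0938).

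Among the carnitine and ergothioneine carriers, SLC22A5 (ENSG00000197375, chr5:132369752-132395614, plus strand) encodes OCTN2, which brings carnitine into cells for fatty acid oxidation. Controls read 35.3, 35.4, 31.4 and 35.8 CPM and formoterol libraries 33.8, 39.0, 33.6 and 39.3 CPM. The SLC22A5 level was 29.4, 33.0, 29.9 and 30.8 CPM in fatty acid libraries and 31.8, 37.1, 34.1 and 31.5 CPM in combination libraries. The groups overlapped in every comparison with control, and SLC22A5 passed none of the 6 tests. Its difference with fatty acids was −0.16 ± 0.08 (edgeR adjusted p = 0.170). SLC22A4 (OCTN1), the ergothioneine carrier next to it, ranged from 3.34 to 6.82 CPM over all libraries and passed no comparison. Exons of MIR3936HG on the opposite strand cover 8.74% of SLC22A4, and since strandedness of the counting is not given, its level is uncertain.

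Among the organic anion transporters, SLC22A7 (ENSG00000137204, chr6:43295694-43305538, plus strand) encodes OAT2, a hepatocyte carrier of urate, cyclic GMP and creatinine. Controls read 22.3, 29.7, 17.3 and 31.5 CPM and formoterol libraries 30.3, 31.5, 31.7 and 27.2 CPM. Fatty acid libraries read 81.0, 64.2, 78.4 and 88.4 CPM and combination libraries 60.8, 13.6, 54.9 and 59.0 CPM. The fatty acid libraries were the 4 highest of the study, and the formoterol libraries lay mostly inside the control range. SLC22A7 rose 3.10-fold with fatty acids, 1.63 ± 0.28 on the log2 scale (edgeR adjusted p = 0.000298), a call kept in every fit that left out 1 library. Formoterol gave 0.26 ± 0.28 (adjusted p = 0.632). The combination exceeded control by 0.90 ± 0.28 (adjusted p = 0.0332), and by 1.21 ± 0.13 without combination replicate 2 (adjusted p = 1.68e-07). That call was lost without control replicates 1 or 3 or combination replicates 1, 3 or 4 (adjusted p = 0.0832 to 0.114), in DESeq2 (adjusted p = 0.0618), and in a fit of the 2 groups alone (adjusted p = 0.125). Combination libraries other than replicate 2 exceeded the formoterol libraries by 0.95 ± 0.13 (adjusted p = 1.1e-05), against 0.64 ± 0.28 with it (adjusted p = 0.116). The interaction was −0.99 ± 0.39 (adjusted p = 0.148), and −0.68 ± 0.18 without that library (adjusted p = 0.0239).

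SLC22A9 (ENSG00000149742, chr11:63369789-63410294, plus strand) encodes OAT7, a liver carrier of sulfated steroids. Controls read 1.01, 0.812, 0.728 and 0.726 CPM and formoterol libraries 1.28, 0.428, 2.16 and 1.06 CPM. With fatty acids the level was 1.43, 1.59, 1.83 and 0.884 CPM, and with both agents 1.98, 0.453, 2.06 and 2.09 CPM. Formoterol libraries spread on both sides of the controls, and combination replicate 2 lay below every control. The combination differed from control by 1.00 ± 0.44 (edgeR adjusted p = 0.148), and by 1.32 ± 0.38 without that library (adjusted p = 0.0183). Its neighbour SLC22A10 had 0 counts in combination replicate 2 and at most 1.09 CPM elsewhere, and shares 5.84% of its exon bases with SLC22A25.

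Among the SLC22 genes of unsettled substrate, SLC22A18 (ENSG00000110628, chr11:2899721-2925246, plus strand) lies in an imprinted region. Controls read 37.7, 42.2, 42.5 and 52.9 CPM and formoterol libraries 51.0, 61.5, 54.8 and 64.8 CPM. The SLC22A18 level was 44.8, 40.5, 42.7 and 45.5 CPM in fatty acid libraries and 46.0, 31.4, 49.7 and 48.3 CPM in combination libraries. The lowest formoterol library lay below the highest control, so those groups overlapped. SLC22A18 rose by 0.41 ± 0.12 with formoterol (edgeR adjusted p = 0.0326) and fell in the combination relative to formoterol, with a log2 change of −0.40 ± 0.12 (adjusted p = 0.0209). The first call was lost without control replicates 1, 2 or 3 or formoterol replicates 2 or 4 (adjusted p = 0.0749 to 0.115). The second was lost without formoterol replicates 2 or 4 or combination replicate 2 (adjusted p = 0.0513 to 0.0785). Both were also lost with scaling by total counts only (log2 0.27, adjusted p = 0.0892, and −0.28, adjusted p = 0.0584), and the second in a fit of the 2 groups alone (adjusted p = 0.0604).

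SLC22A15 (ENSG00000163393, chr1:115976498-116070054, plus strand), a carrier of zwitterions such as ergothioneine, read 12.2, 13.0, 13.5 and 11.3 CPM in control and 11.2, 9.34, 8.98 and 10.4 CPM with formoterol. Fatty acid libraries read 11.5, 10.8, 11.7 and 11.7 CPM and combination libraries 10.4, 10.5, 10.6 and 10.5 CPM. All formoterol libraries lay below the controls, and the difference passed at −0.33 ± 0.10 (edgeR adjusted p = 0.0421). That call passed in 5 of the 16 fits that left out 1 library, and was lost without control replicates 1, 2 or 3, formoterol replicates 2, 3 or 4, fatty acids replicates 3 or 4 or combination replicates 1, 3 or 4 (adjusted p = 0.0503 to 0.134). It was also lost with no filter on low counts (adjusted p = 0.212) and in a fit of the 2 groups alone (adjusted p = 0.0726). SLC22A17, a lipocalin receptor, ranged from 8.14 to 13.9 CPM and SLC22A23 from 35.8 to 45.9 CPM, and neither passed a comparison. Exons of PSMG4 on the opposite strand cover 15.6% of SLC22A23, so part of its counts may belong to PSMG4.

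SLC47A1 (ENSG00000142494, chr17:19495385-19579034, plus strand) encodes MATE1, which extrudes metformin and other cations into bile. Controls read 43.8, 49.4, 35.2 and 46.8 CPM and formoterol libraries 73.1, 66.7, 74.3 and 73.7 CPM. With fatty acids the level was 62.8, 54.8, 65.3 and 65.0 CPM, and with both agents 59.2, 31.4, 58.8 and 62.4 CPM. Formoterol libraries lay above all others, fatty acid libraries above the controls, and combination replicate 2 below every control. SLC47A1 rose by 0.72 ± 0.15 with formoterol (edgeR adjusted p = 0.00319) and by 0.50 ± 0.15 with fatty acids (adjusted p = 0.0208). The combination differed from formoterol alone by −0.44 ± 0.14 (adjusted p = 0.0364), and by −0.26 ± 0.09 without combination replicate 2 (adjusted p = 0.0481). The interaction was −0.94 ± 0.21 (adjusted p = 0.0108). The fatty acid call was lost without control replicate 3 or fatty acids replicates 1, 3 or 4 (adjusted p = 0.0533 to 0.0816). The call against formoterol was lost without formoterol replicates 1, 3 or 4 (adjusted p = 0.0732 to 0.0797), with scaling by total counts only (log2 −0.33, adjusted p = 0.0680) and in a fit of the 2 groups alone (adjusted p = 0.104). The combination differed from control by 0.27 ± 0.15 (adjusted p = 0.245), and passed without combination replicate 2 at 0.46 ± 0.09 (adjusted p = 0.000451). The formoterol and interaction calls passed in every fit that left out 1 library.

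SLC47A2 (ENSG00000180638, chr17:19678288-19718979, minus strand), its neighbour, encodes MATE2, the kidney form. Controls read 6.09, 8.20, 5.60 and 8.07 CPM and formoterol libraries 5.19, 4.47, 5.57 and 7.22 CPM. The SLC47A2 level was 9.72, 10.3, 10.1 and 10.3 CPM in fatty acid libraries and 7.96, 13.0, 6.74 and 6.59 CPM in combination libraries. Fatty acid libraries lay above all controls, and combination replicate 2 was the highest of the 16, where SLC47A1 was lowest. The difference of 0.53 ± 0.20 with fatty acids did not pass (edgeR adjusted p = 0.0675) and passed without combination replicate 2 (adjusted p = 0.0140). The combination exceeded formoterol by 0.61 ± 0.20 (adjusted p = 0.0355). That call was lost without formoterol replicates 1, 2 or 3 or combination replicates 1 or 2 (adjusted p = 0.0517 to 0.211), where the change without combination replicate 2 was 0.33 ± 0.17, and in a fit of the 2 groups alone (adjusted p = 0.0889).

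**Figure D2:**
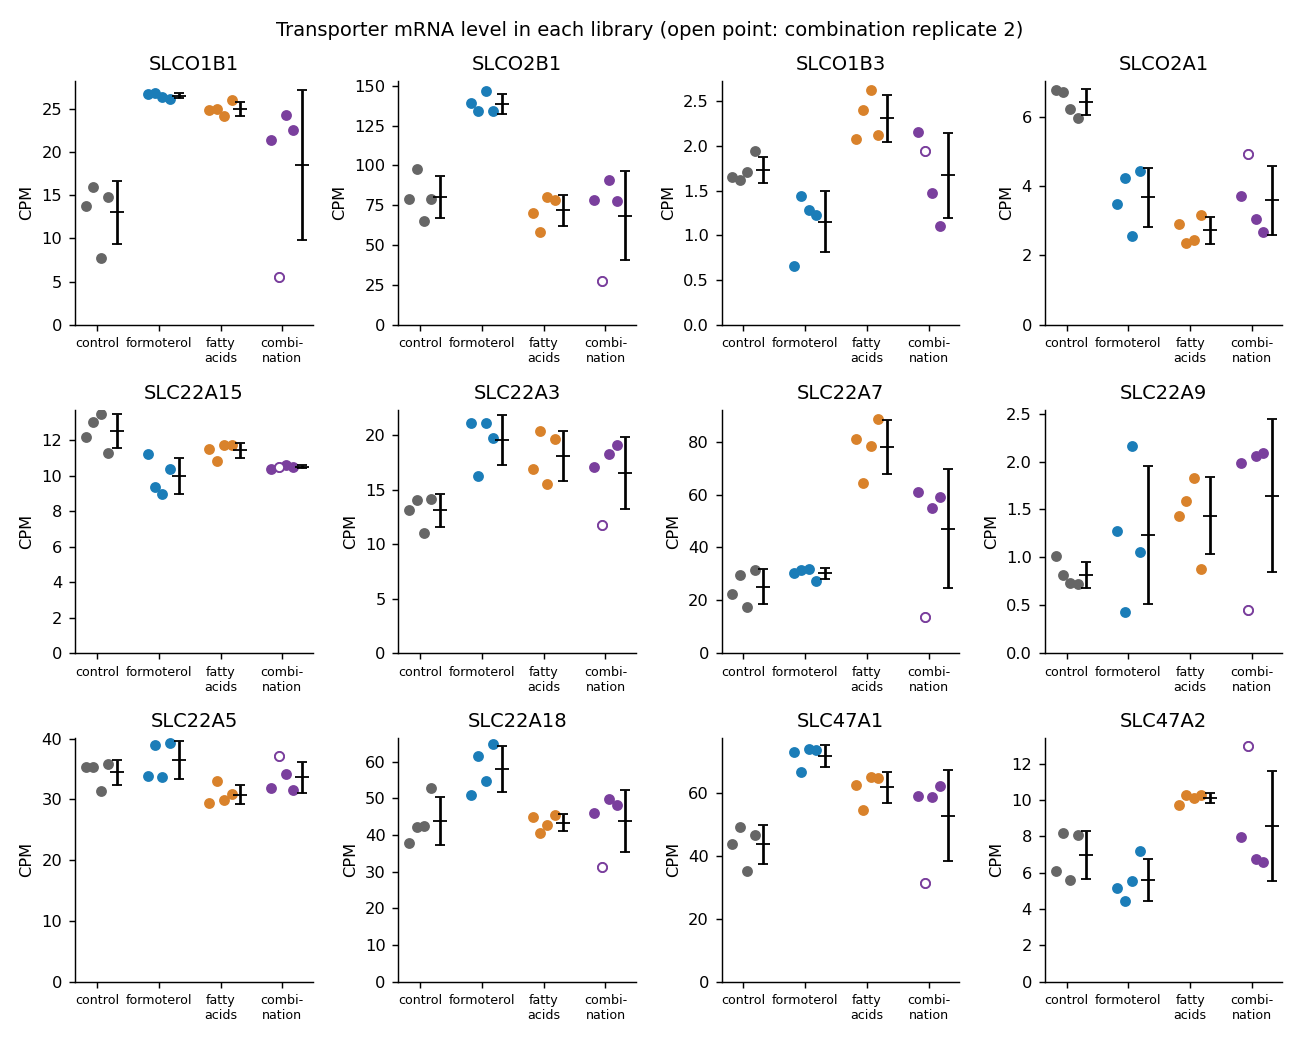
CPM of 12 transporter genes in each of the 16 libraries, by group; open points are combination replicate 2, and bars are the group mean ± SD. SLCO1B1 and SLC22A7 read 5.55 and 13.6 CPM in combination replicate 2, below all controls, while all treated libraries of SLCO2A1 lie below the controls.

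Counted over the 22 tested genes, fatty acids changed 5 (4 up, 1 down; 22.7%) against control, beside 16.5% of all 18121 tested genes (8.93% up, 7.62% down; edgeR, Benjamini-Hochberg adjusted p under 0.05). SLC22A3, SLC22A7, SLC47A1 and SLCO1B1 rose and SLCO2A1 fell. The libraries of both groups did not overlap for 8 of the 22 genes, beside 21.0% of all genes. Without combination replicate 2 the count was 7, SLC47A2 among those added, beside 19.4% of all genes. Without control replicate 3 it was 2. Here and below, shares of all genes are not given for fits that left out any library other than combination replicate 2. The median log2 change of the 22 genes was 0.05, and that of all genes 0.01.

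Formoterol changed 7 of the 22 genes against control (5 up, 2 down; 31.8%), beside 10.3% of all genes (5.76% up, 4.57% down). SLC22A3, SLC22A18, SLC47A1, SLCO1B1 and SLCO2B1 rose, and SLC22A15 and SLCO2A1 fell. The groups did not overlap for 8 genes, beside 16.7% of all genes. The count was 8 without combination replicate 2, beside 14.0% of all genes, and 3 without control replicate 3. Median log2 changes were 0.12 for the 22 genes and 0.00 for all. The comparisons with control share the same 4 control libraries, so the genes called in both are not independent findings. With library sizes scaled by total counts only, the median of all genes moved by −0.13 in this comparison, by 0.13 in that of the combination with formoterol and by 0.16 in the interaction.

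Formoterol added to fatty acids changed 0 of the 22 genes by edgeR, beside 2.80% of all genes (1.68% up, 1.12% down), with 5 genes at an unadjusted p under 0.05 and 1 gene called by DESeq2. Groups did not overlap for 3 genes, beside 9.34% of all genes. Without combination replicate 2 the count was 1, beside 3.19% of all genes. Fatty acids added to formoterol changed 4 genes (1 up, 3 down; 18.2%), beside 18.4% of all genes (9.48% up, 8.97% down). SLC47A2 rose and SLC22A18, SLC47A1 and SLCO2B1 fell. With total count scaling the split became 4 up and 1 down. Groups did not overlap for 6 genes, beside 21.1%. Without combination replicate 2 there were 3 calls, of which SLC47A1 and SLCO2B1 were shared, beside 14.6% of all genes. The count was 2 without formoterol replicate 1, 3 or 4.

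Both agents together changed 2 of the 22 genes against control (SLC22A7 up, SLCO2A1 down; 9.09%), beside 14.3% of all genes (7.58% up, 6.68% down). Groups did not overlap for 2 genes, beside 16.3%. Without combination replicate 2 the count was 6 (5 up, 1 down), beside 15.2% of all genes, with SLC22A3, SLC22A9, SLC47A1 and SLCO1B1 added. It was 1 without control replicate 1 or 3 or combination replicate 1, 3 or 4. The interaction passed for 5 genes (1 positive, 4 negative; 22.7%), beside 5.50% of all genes (2.12% positive, 3.38% negative). SLC22A3, SLC47A1 and SLCO1B1 were among the negative ones, and SLCO2A1 was positive. Without combination replicate 2 the count was 7 and held all of these 5, beside 5.54% of all genes. It was 2 without control replicate 3, formoterol replicate 3 or 4, or fatty acid replicate 1. Over the 6 tests, 10 of the 22 genes passed at least 1 and 12 passed none. The share of all tested genes passing at least 1 was not counted, so this count is not a trait of the transporters.

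**Figure D3:**
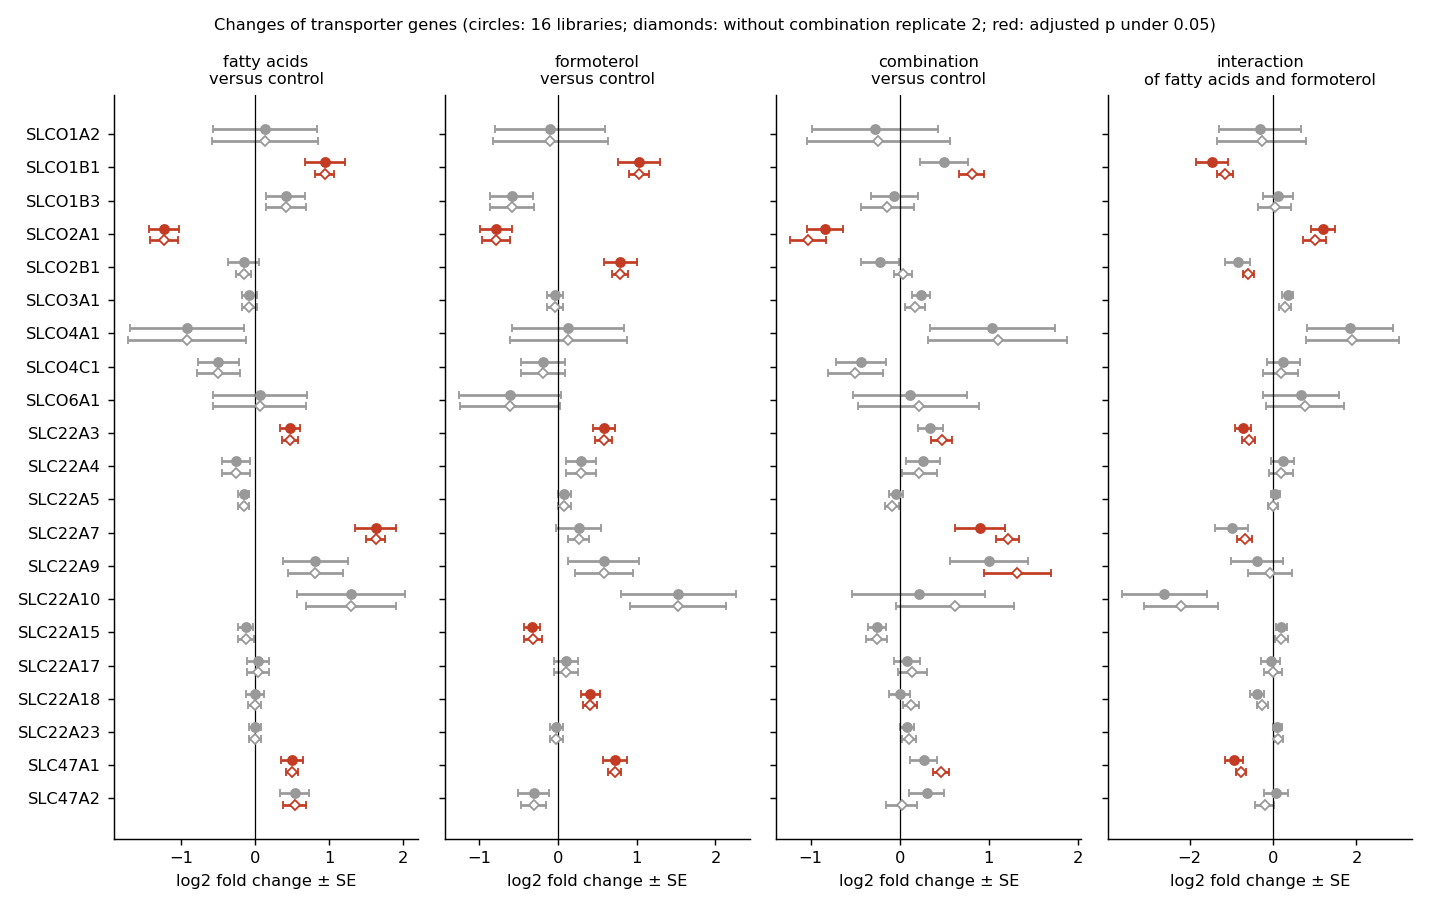
Log2 changes ± SE of 21 tested genes in the comparisons with control and the interaction, from all 16 libraries (circles) and without combination replicate 2 (diamonds), in red where the edgeR adjusted p was under 0.05. SLCO2A1 lies below 0 against control under fatty acids (−1.24), formoterol (−0.79) and both (−0.84), while SLC22A7 lies highest under fatty acids (1.63).

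The transporters were read beside the hepatocyte markers because both moved between libraries. Of the 14 markers, formoterol raised 10, fatty acids raised 8 and lowered 1, and the combination raised 7 and lowered 2 (edgeR adjusted p under 0.05). The interaction was negative for 11. Beside these and the other marker lists below stand the shares of all tested genes. They were 5.76% up and 4.57% down with formoterol, and 8.93% up and 7.62% down with fatty acids. For the combination they were 7.58% up and 6.68% down, and the interaction was negative for 3.38%. Leaving out combination replicate 2 gave 12 raised by formoterol, 10 raised and 1 lowered by fatty acids, 10 raised and 3 lowered by the combination, and 13 with a negative interaction. The shares of all genes called in either direction were then 14.0%, 19.4%, 15.2% and 5.54%, in that order. Their summed level was 24474 to 36853 CPM in control, 54088 to 58678 with formoterol, 48615 to 56411 with fatty acids and 21236 to 54228 in the combination. SLCO1B1 and SLC47A1 were low in the libraries where these markers were low, control replicate 3 and combination replicate 2. The part of the markers in the transporter results was not tested, and in bulk RNA fewer cells of a type and less RNA per cell cannot be told apart. SLC22A7 read 64.2 to 88.4 CPM with fatty acids and 27.2 to 31.7 CPM with formoterol. The marker mean was 0.38 to 0.68 with fatty acids and 0.77 to 0.96 with formoterol. SLC22A5 read 37.1 CPM in combination replicate 2, above the other 3 combination libraries. Proliferation and progenitor markers also moved: 5 of 8 tested rose in the fatty acid and combination comparisons with control, and 3 of 8 with formoterol. Leaving out combination replicate 2 gave 4 raised by formoterol. Of 8 tested cholangiocyte markers, 5 rose and 1 fell with fatty acids, and without combination replicate 2 the counts were 6 and 1. Of 7 tested stellate and fibroblast markers 1 rose and 1 fell with fatty acids, and 1 fell with formoterol. Without combination replicate 2 these counts were 2 up and 1 down with fatty acids and 3 down with formoterol. COL1A2 was at 0 throughout. Macrophage and leukocyte markers summed to at most 1.71 CPM. Endothelial markers, nearly all KDR, summed to 117 to 133 CPM in control, 38.9 to 50.5 with formoterol, 158 to 171 with fatty acids and 52.6 to 107 in the combination. Of 2 tested, 1 fell with formoterol and 1 rose with fatty acids, while CDH5 and CLEC4G were at 0 throughout. Without combination replicate 2, fatty acids raised 2 endothelial markers. The part of these markers in the transporter results was not tested.

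**Figure D4:**
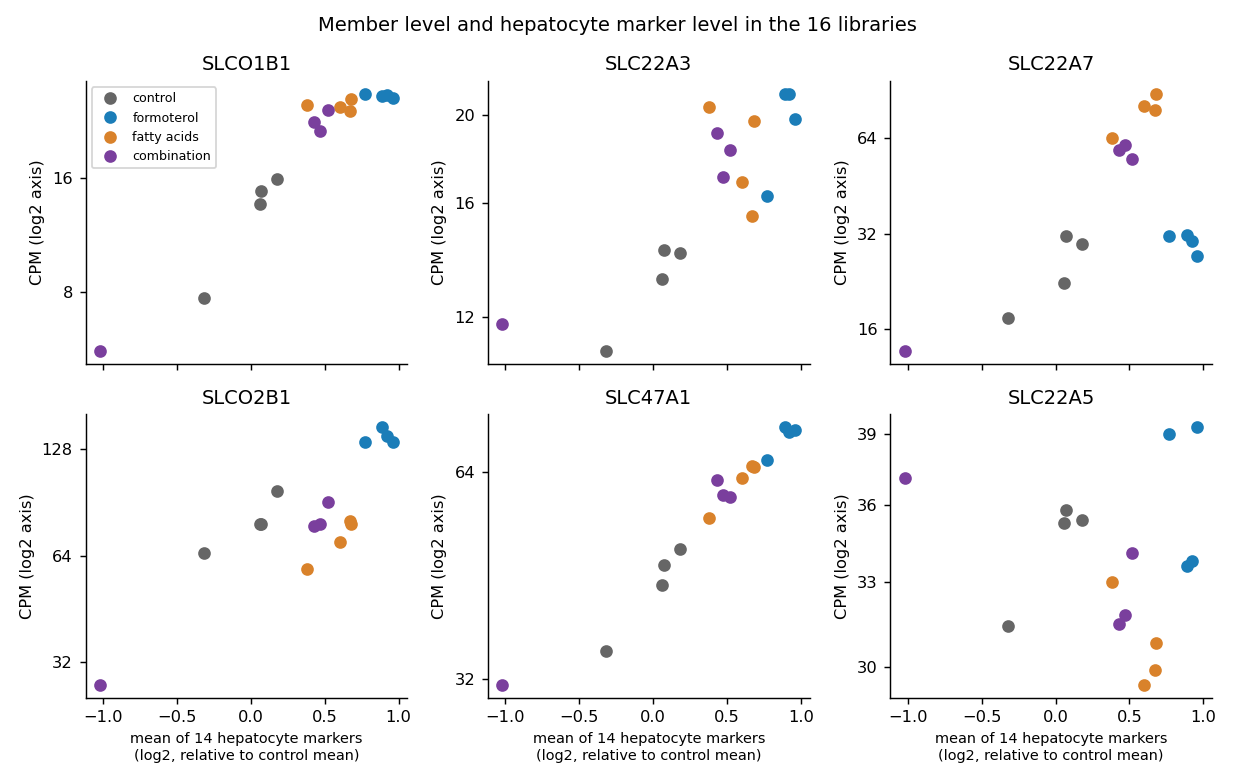
Level of 6 transporter genes (CPM, log2 axis) against the mean of 14 hepatocyte markers (log2, relative to the control mean) in the 16 libraries. Combination replicate 2, at −1.02, is the lowest library for SLCO1B1, SLC22A7, SLCO2B1 and SLC47A1, and the fatty acid libraries of SLC22A7 read 64.2 to 88.4 CPM.

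Combination replicate 2 read at or under 0.5 times the mean of the other 3 combination libraries for 6 of the 22 genes, beside 6.73% of all genes. Among them were SLC22A9 (0.222 times), SLC22A7 (0.234), SLCO1B1 (0.244), SLCO2B1 (0.337) and SLC22A10, at 0 counts. The same held for 11 of the 14 hepatocyte markers. At the other end SLC47A2 read 1.84 times, SLCO2A1 1.57 times and SLCO1B3 1.23 times the mean of the other 3. In control replicate 3 SLCO1B1 read 0.521 times the mean of the other 3 controls, and SLC22A7 0.621 times.

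**Figure D5:**
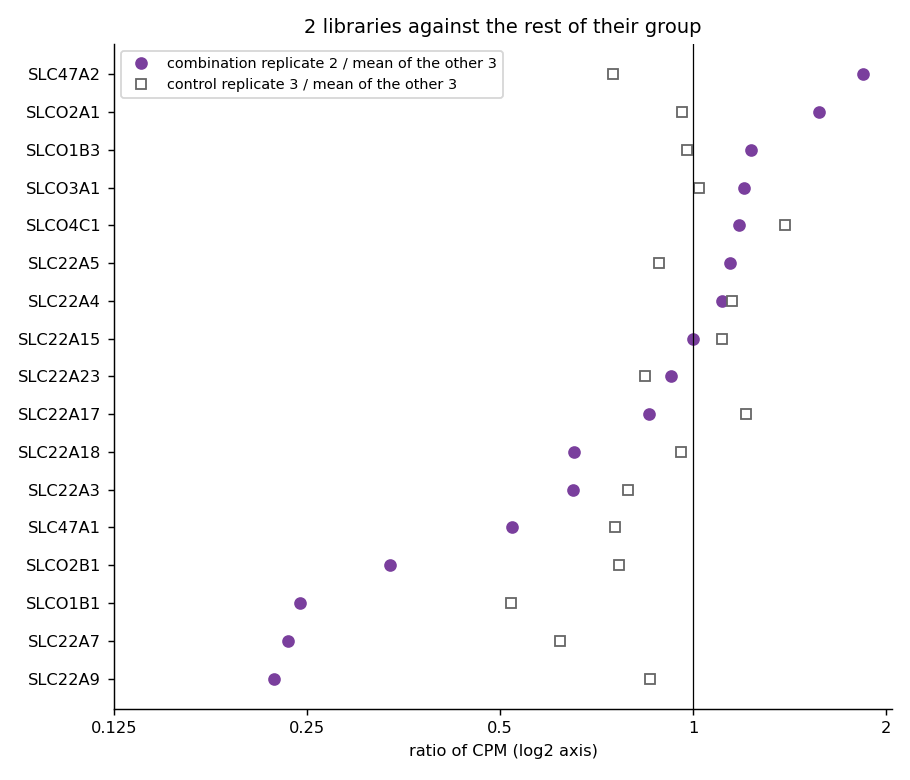
Level of SLC22A9 and of 16 genes averaging at least 1 CPM in control, in combination replicate 2 and control replicate 3 divided by the mean of the other 3 libraries of the group (log2 axis). SLC22A9, SLC22A7, SLCO1B1 and SLCO2B1 lie between 0.222 and 0.337 in combination replicate 2, and SLC47A2 at 1.84.

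Genes that act around the transporters were counted from lists chosen by function. Of 23 tested regulators of transporter genes, formoterol raised 7 and lowered 1, and fatty acids raised 7 and lowered 3. HNF4A, a master factor of hepatocytes, rose by 0.77 ± 0.13 with formoterol (edgeR adjusted p = 0.000781), from 95.2 ± 4.14 to 163 ± 11.2 CPM. NR1H4, the bile acid receptor FXR, rose by 0.81 ± 0.15 (adjusted p = 0.00141). PPARGC1A, a coactivator of fasting metabolism, fell by 0.76 ± 0.07 with fatty acids (adjusted p = 1.03e-07), from 104 ± 6.31 to 61.4 ± 5.59 CPM. The interaction was negative for 5 of the 23 and positive for 0. With combination replicate 2 left out the counts were 9 up and 1 down with formoterol, 10 up and 3 down with fatty acids, and 6 negative and 1 positive for the interaction. The shares of all tested genes given above for these comparisons apply to each of these lists: 5.76% up and 4.57% down with formoterol, 8.93% up and 7.62% down with fatty acids, and 2.12% positive and 3.38% negative for the interaction.

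Of 17 tested partner carriers and scaffolds of the hepatocyte membranes, formoterol raised 7 and lowered 1, and fatty acids raised 6 and lowered 1. With formoterol the smallest p of this list was that of ABCC1, which changed by −0.48 ± 0.07 (edgeR adjusted p = 0.000179). ABCB1, the efflux pump P-glycoprotein, rose by 0.71 ± 0.12 with formoterol (adjusted p = 0.000527). PDZK1, a scaffold that holds several of these transporters at the membrane, rose by 0.82 ± 0.17 with fatty acids (adjusted p = 0.00213). SLC10A1, the sodium-dependent bile salt carrier NTCP, differed by −1.31 ± 0.24 between the combination and formoterol (adjusted p = 0.000664). The interaction was negative for 4 and positive for 1, ABCC1. Leaving out combination replicate 2, formoterol raised 9 and lowered 3, fatty acids raised 8 and lowered 2, and the interaction was negative for 6 and positive for 1.

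Carnitine is the cargo of SLC22A5. Of 12 genes listed for carnitine synthesis, transfer and transport, fatty acids raised 4 and lowered 0. CPT1A, the gate of mitochondrial fatty acid uptake, rose by 0.83 ± 0.06 (adjusted p = 5.29e-09), from 133 ± 7.36 to 237 ± 8.61 CPM. SLC25A20, the mitochondrial carnitine carrier, rose by 0.42 ± 0.10 (adjusted p = 0.00819), while SLC22A5 itself passed no test. Formoterol raised 4 of the 12, among them SHMT2, at 0.51 ± 0.10 (adjusted p = 0.00201). Fatty acids raised 6 and formoterol 5 without combination replicate 2.

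Among 12 tested genes of urate and prostaglandin handling, fatty acids raised 3 and lowered 1, and formoterol raised 4. HPGD, the enzyme that breaks down prostaglandins taken up by SLCO2A1, rose by 0.71 ± 0.14 with fatty acids (adjusted p = 0.00101) and 0.80 ± 0.14 with formoterol (adjusted p = 0.000837). Its interaction was −1.16 ± 0.19 (adjusted p = 0.00189), opposite in sign to that of SLCO2A1. Fatty acids raised 4 and lowered 2 of the 12, and formoterol raised 6, without combination replicate 2. Among 11 tested genes of thyroid hormone handling, fatty acids raised 1 and lowered 2. DIO2, which activates thyroxine, fell by 1.87 ± 0.07 with fatty acids (adjusted p = 8.65e-14), from 105 ± 2.51 to 28.6 ± 1.89 CPM, and read 57.6 ± 5.53 CPM in the combination. Formoterol raised 3 of the 11 and lowered 2, and the interaction was positive for 2 and negative for 2. With combination replicate 2 left out fatty acids raised 2 and lowered 2, formoterol raised 5 and lowered 2, and the interaction was positive for 2 and negative for 3.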

How the data were processed

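Per the labels' protocols, poly-A RNA was primed with random hexamers. The deposited table holds whole-number counts per gene that the authors made, with a gene length per gene. HISAT2 2.0.5 and DESeq2 appear in the submitters' processing notes, with mm39, a mouse build, yet all 58735 gene IDs are human and match GENCODE release 29. The counting program and its strand setting are not given in the sources used. Genes were filtered with filterByExpr, which kept 18121 genes and at least 99.9162% of the counts of a library. edgeR 4.0.16 in R 4.3.3 fitted quasi-likelihood models with TMM factors and 4 group means over 16 libraries (12 residual degrees of freedom). It tested 5 pairwise comparisons and the interaction, with Benjamini-Hochberg adjustment over all tested genes at 0.05. The fit was tested on simulated counts. Means and SDs are in CPM, and the marker mean used log2(CPM + 0.5). Members given library by library were the main liver members and those called in a comparison whose higher group averaged 1 CPM or more. Genes named from related lists were each among the 3 called genes with the smallest p in the comparison given. Some genes of these lists with smaller p were not named, so the named genes are examples only. The values of 1 member are not reported here. The members and lists were chosen with earlier results of these data known. Alternatives were other scalings (DESeq2 1.42.0 size factors, total counts), other filters, DESeq2, a replicate block, the 2 groups alone and each library left out. Same-numbered libraries did not deviate together. Promoter windows were read from RefSeq, and 15 of the 36 genes had none. The motifs searched on both strands numbered 10. Beside those the report spells out they were the full HNF1 site, the nuclear receptor half-site AGGTCA and its direct repeat spaced by 1 base, the monomer site AGGGCA of the same receptor class, the TATA box and the glucocorticoid response element. The shorter cyclic AMP motif lies within the longer.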

Additional observations from a re-analysis of the deposited data

Results flagged for a closer look

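In 6 of 48 groups examined (12 genes in each of 4 groups), 1 library lay far from the other 3 by Dixon's test at the 95% level (gap over range), where chance gives about 1 in 20 groups. Combination replicate 2 was that library in 4 of the 6. It read 13.6 CPM for SLC22A7, 0.453 CPM for SLC22A9, 31.4 CPM for SLC47A1 and 5.55 CPM for SLCO1B1, each below the other combination libraries. Control replicate 3 read 31.4 CPM for SLC22A5, below the other controls, and formoterol replicate 2 read 66.7 CPM for SLC47A1, below the other formoterol libraries.

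The effect of formoterol differed between cells with and without fatty acids for these genes, by the interaction test (edgeR adjusted p under 0.05). The difference in log2 change was −0.94 for SLC47A1, −1.46 for SLCO1B1, −0.71 for SLC22A3 and 1.19 for SLCO2A1. Of the 16 fits that left out 1 library, the call passed in all for SLC47A1 and SLCO2A1. It passed in 12 for SLCO1B1 and in 7 for SLC22A3.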

How the results depend on the processing

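No named call changed direction under any alternative tried. Counts of the 22 genes called moved by over 1.5 times as follows. Without a filter on low counts they were 3 for the combination against fatty acids, 7 against formoterol, 4 against control and 8 for the interaction. DESeq2 called 1 in the combination against fatty acids and 1 against control. With only the 2 groups compared, the combination gave 1 against formoterol and 1 against control. The replicate block gave 1 for the combination against control. Over all tested genes, same-numbered libraries had correlations of deviations of −0.113 to 0.0825. That check does not settle whether same-numbered libraries shared a culture, day or batch. Under that block the formoterol call of SLC22A15 (adjusted p = 0.0569) and the combination call of SLC22A7 against control (adjusted p = 0.0537) were lost. With control replicate 3 and combination replicate 2 both left out, chosen after seeing the data, the counts were 2 for the combination against fatty acids and 6 against control. The cause of these differences was not tested. Shares of all genes called are not given for these alternatives. The counts therefore do not show whether the transporters moved more than other genes. Leaving out 1 library at a time gave 2 to 7 for fatty acids against control, 3 to 8 for formoterol against control, 0 to 1 for the combination against fatty acids, 2 to 5 against formoterol, 1 to 6 against control and 2 to 7 for the interaction. Of 22 named calls, 13 were lost in at least 1 such fit. The filter of at least 1 CPM in 4 libraries kept 18 of the 22 genes. The 4 genes it left out, SLCO1A2, SLCO4A1, SLCO6A1 and SLC22A10, passed no comparison, and the smallest differences these libraries could show for them were not tested.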

Other observations

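SLC22A12 and SLC22A11, neighbouring urate carrier genes on chromosome 11 that were below the filter, both had their highest count in formoterol replicate 4, with 40 and 18 counts. That library was the deepest, and the other 3 formoterol libraries held at most 4 counts of SLC22A12 and 0 of SLC22A11. SLC47A1 and SLC47A2, neighbours on chromosome 17, were at opposite ends in combination replicate 2, at 0.522 and 1.84 times the mean of the other 3 combination libraries. SLCO1C1, a thyroid hormone carrier of brain vessels, had 10 of its 16 counts in formoterol replicate 2. Of all table values from 1 to 10 counts, 57.6% were even.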
